A study of Mus musculus with 60 samples.

Results

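The 8 genes described here are Flcn, Fnip1, Fnip2, Rragc, Rragd, Tfeb, Tfe3 and Mitf, which encode folliculin, its binding partners, a pair of Rag GTPases and the transcription factors whose place in the cell they control. They were chosen by name, and each was read from the brightest of its probe sets on an Affymetrix mouse gene array; they are 8 of the 19938 gene symbols measured. Mitf has a second probe set, and the other 7 genes have 1 each. All values below are log2 signals as deposited by the authors, and a log2 fold change is the mean of 3 compound arrays minus the mean of 3 DMSO arrays, with its standard error from limma.

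The lysosome surface is where cells sense amino acids. Folliculin, bound to Fnip1 or Fnip2, is the GTPase-activating protein for RagC and RagD (Rragc, Rragd), which pair with RagA or RagB and bring the kinase complex mTORC1 to the lysosome. RagC or RagD in the GDP-bound state also presents the transcription factors TFEB, TFE3 and MITF to mTORC1, which phosphorylates them and so keeps them in the cytoplasm; released, they enter the nucleus and switch on genes of lysosomes and autophagy. Genes for folliculin, its partners and the Rag proteins are themselves known targets of these factors, which forms a feedback loop. In mouse embryonic stem cells folliculin with Fnip1 or Fnip2 keeps Tfe3 out of the nucleus, and nuclear Tfe3 holds the cells in the naive state, partly through the gene Esrrb. RNA levels on an array say nothing of where these proteins sit or how they are phosphorylated.

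The arrays came from R1, an established mouse embryonic stem cell line, kept undifferentiated, depleted of feeder cells and exposed for 6 h in complete medium. The 19 compounds were given at a dose set by viability (the concentration inhibiting it by 10%), by solubility or by a ceiling of 1 mM, whichever was lowest. The 9 non-teratogens were loratadine (0.043 mM), chlorthalidone (1 mM), ondansetron (0.054 mM), clozapine (0.028 mM), metoclopramide (0.17 mM), sulfasalazine (1 mM), paracetamol (1 mM), glybenclamide (0.37 mM) and hydrochlorothiazide (1 mM). The 10 teratogens were VPA (valproic acid, 1 mM), all trans retinoic acid (0.024 mM, below "retinoic acid"), dexamethasone (0.1 mM, spelled Dexamethazone in the labels), penicillamine (1 mM), thalidomide (0.35 mM), fluconazole (1 mM), dimethadione (1 mM), topiramate (1 mM), methotrexate (0.028 µM) and 5-azacytidine (below "azacytidine"), whose dose is given as 0.23 µM in one label and 23 µM in another. The solvent control was 0.1% DMSO. Each of the 20 groups held 3 arrays, 60 in all, and all groups share one cell line; the labels do not say that the 3 arrays came from separate cultures, so p-values measure the spread between these arrays, which may be technical.

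The array medians lay between 7.58 and 7.79, 2 arrays correlated over probe sets with r between 0.981 and 0.997, and no 2 arrays were identical. All 12 markers of embryonic stem cells were above the DMSO median of all probe sets (8.08), at 10.7 to 13.6. Of 12 markers of feeder fibroblasts, 8 were also above it, and all 12 ranged between 4.46 and 10.1. The mean of the fibroblast markers was between 8.01 and 8.06 on the loratadine arrays and between 8.04 and 8.13 on the DMSO arrays. In such bulk samples fewer cells of a type and less RNA per cell cannot be told apart.

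Across the 152 pairs of a gene and a compound, 29 passed the test (limma, Benjamini-Hochberg adjusted p under 0.05 over 21789 probe sets within a compound), 14 upward and 15 downward. Against DMSO, the increases were in Flcn, Fnip1, Fnip2 and Rragc, and the decreases in Rragd, Tfeb, Tfe3 and Mitf. All 19 comparisons share the same 3 DMSO arrays, so a DMSO mean that is off by chance shifts every compound alike for that gene. From the highest of the 20 groups, DMSO ranked 15th for Flcn, 17th for Fnip1, 15th for Fnip2 and 18th for Rragc. It ranked 3rd for Rragd, 7th for Tfeb, 13th for Tfe3 and 2nd for Mitf. In each of the 29 pairs all 3 compound arrays lay beyond all 3 DMSO arrays. Pairs that were not called could do so too, as Flcn with sulfasalazine did (-0.04, limma adjusted p = 0.746). The share of all probe sets that did so was not counted, so a lack of overlap here and below is a description and no added support.

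Loratadine, an H1 antihistamine, moved 6 of the 8 genes, where 19.2% of all probe sets were called: Flcn, Fnip1, Fnip2 and Rragc rose, as did 10.9% of all probe sets, and Rragd and Tfe3 fell, as did 8.26%. Chlorthalidone, a diuretic, raised Flcn, Fnip1 and Rragc, where 2.58% of all probe sets were called and 1.44% rose. Clozapine, an antipsychotic, raised the same 3 genes, where 1.31% were called and 1.10% rose. Metoclopramide, a dopamine antagonist, raised Flcn and Fnip1, where 0.197% of all probe sets were called and 0.184% rose. Ondansetron, a serotonin receptor antagonist, raised Fnip1, where 0.330% were called and 0.289% rose. VPA, an antiepileptic and deacetylase inhibitor, raised Fnip1, as it did 15.5% of all probe sets, and lowered Rragd and Tfe3, as it did 11.0%, for 26.5% called.

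Retinoic acid lowered Rragd, Tfeb and Mitf, where 9.82% of all probe sets were called and 3.92% fell. Paracetamol lowered the same 3 genes, where 8.76% were called and 4.15% fell. Sulfasalazine, an anti-inflammatory drug, lowered Rragd and Mitf (8.90% called, 3.50% fell). Glybenclamide, an antidiabetic (9.54% called, 2.75% fell), and hydrochlorothiazide, a diuretic (2.17% called, 1.87% fell), lowered Rragd, and dexamethasone, a glucocorticoid (6.25% called, 4.74% fell), lowered Mitf. With VPA, glybenclamide and dexamethasone the count of genes called was close to what the share of all probe sets would give for 8 genes. With the remaining 7 compounds, all teratogens, none of the 8 genes was called, and 6 of the 7 had no probe set called at all.

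**Figure D1:**
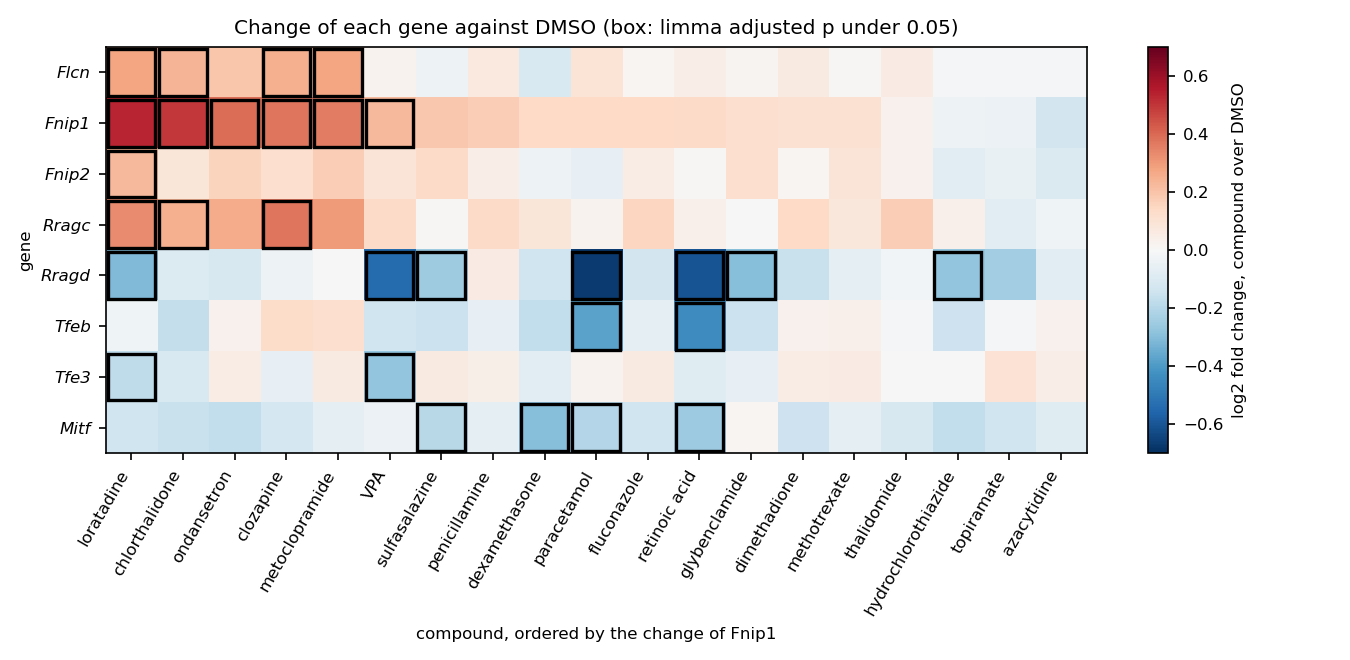
Log2 fold change of each of the 8 genes (rows) with each of the 19 compounds (columns, ordered by the change of Fnip1), as the mean of 3 compound arrays minus the mean of 3 DMSO arrays, with boxes on the 29 pairs called by limma at adjusted p under 0.05. The calls upward stand in the rows of Flcn, Fnip1, Fnip2 and Rragc and the calls downward in those of Rragd, Tfeb, Tfe3 and Mitf.

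TFEB, TFE3 and MITF bind a short E-box, CACGTG, most often with a T before it. The promoters of Fnip1 and Rragc are shown because theirs are the only ones of the 13 RefSeq start sites of the 8 genes whose window, 250 bases before the start to 50 after, holds this box; that of Rragd, which also encodes a Rag GTPase and whose values moved the other way, is shown beside them. The windows of Flcn and Fnip2, which rose as Fnip1 and Rragc did, hold no CACGTG either, nor do those of Tfeb, Tfe3 and Mitf. CACGTG was found on either strand in 7.15% of 32851 such windows of all genes, and TCACGTG, which contains it, in 3.77%. Both boxes of these genes, in capitals, read CACGTGA on the plus strand, which is TCACGTG on the minus strand, and lie 75 bases before the start of Fnip1 and 112 bases before that of Rragc. The longer CLEAR palindrome described for lysosomal genes (0.326% of all windows) and TGATGNAA, the composite site of ATF4 (3.97%), were in none of the 13 windows. A match of letters is a description and not a measured binding site. The sequences are RefSeq's (GRCm38.p6), the 250 bases before each start on the plus strand, at chr11:54437929-54438178 for Fnip1, chr4:123917183-123917432 for Rragc and chr4:32982748-32982997 for Rragd.
Fnip1: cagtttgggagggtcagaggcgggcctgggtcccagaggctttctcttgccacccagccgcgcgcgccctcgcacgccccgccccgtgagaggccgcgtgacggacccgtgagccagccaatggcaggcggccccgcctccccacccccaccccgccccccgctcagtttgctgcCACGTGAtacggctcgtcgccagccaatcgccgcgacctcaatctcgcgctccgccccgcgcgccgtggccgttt
Rragc: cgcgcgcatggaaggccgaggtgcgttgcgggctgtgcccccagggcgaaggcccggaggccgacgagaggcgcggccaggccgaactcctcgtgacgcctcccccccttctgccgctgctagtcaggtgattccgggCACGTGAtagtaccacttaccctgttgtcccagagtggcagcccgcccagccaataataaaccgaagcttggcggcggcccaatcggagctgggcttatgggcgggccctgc
Rragd: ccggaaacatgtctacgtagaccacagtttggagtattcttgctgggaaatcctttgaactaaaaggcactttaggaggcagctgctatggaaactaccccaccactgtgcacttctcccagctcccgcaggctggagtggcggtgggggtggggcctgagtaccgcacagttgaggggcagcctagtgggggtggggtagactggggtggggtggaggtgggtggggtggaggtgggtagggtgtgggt

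Fnip1 was the gene moved by most compounds upward, 6 of 19. On the 3 loratadine arrays it read 10.40, 10.37 and 10.39, against 9.78, 9.86 and 9.91 on the 3 DMSO arrays. The loratadine arrays were nearly identical and far above every DMSO array, and the log2 fold change was 0.53 ± 0.071 (limma adjusted p = 1.05e-07). With chlorthalidone the arrays were as tight, at 10.33, 10.34 and 10.35, for a log2 fold change of 0.49 ± 0.071 (limma adjusted p = 5.09e-06). Both groups lay well above DMSO on every array.

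Ondansetron, clozapine and metoclopramide gave a middle level of Fnip1. Ondansetron arrays read 10.16, 10.34 and 10.22, with a log2 fold change of 0.39 ± 0.071 (limma adjusted p = 0.00245). Clozapine arrays read 10.34, 10.12 and 10.23 (0.38 ± 0.071, limma adjusted p = 0.000856), and metoclopramide arrays 10.24, 10.19 and 10.20 (0.36 ± 0.071, limma adjusted p = 0.00847). None of these 9 arrays overlapped the DMSO arrays, though the spread within clozapine and ondansetron was wider than with loratadine. VPA gave the smallest called increase, with arrays at 10.09, 10.07 and 10.07 and a log2 fold change of 0.23 ± 0.071 (limma adjusted p = 0.0127). Some of these calls rested on 1 array: ondansetron lost it without its replicate 2 (limma adjusted p = 0.0825), VPA without DMSO replicate 1 (adjusted p = 0.0804), and metoclopramide without DMSO replicate 1 or 2 or its own replicate 1 (adjusted p up to 0.0978). Fitted on the 6 arrays of a comparison alone, limma gave no call for clozapine (adjusted p = 0.0935), metoclopramide (0.214) or ondansetron (0.230). DMSO was among the lower groups for Fnip1, 17th of 20 from the highest, with 16 of the 19 compounds above it. Set against the mean of the other 18 compounds in place of DMSO, loratadine (0.37), chlorthalidone (0.33) and clozapine (0.20) were still called, while VPA (0.05, limma adjusted p = 0.574), ondansetron (0.22, 0.0544) and metoclopramide (0.19, 0.0820) were not.

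Flcn, the folliculin gene itself, rose by less and in 4 compounds. It read 9.79, 9.70 and 9.75 with loratadine, against 9.46, 9.46 and 9.51 with DMSO, a log2 fold change of 0.27 ± 0.064 (limma adjusted p = 0.00121). The metoclopramide arrays read 9.81, 9.68 and 9.76 (0.27 ± 0.064, limma adjusted p = 0.0419). All arrays of both compounds were above the highest DMSO array, and so were those of the other 2 compounds. Clozapine arrays read 9.69, 9.72 and 9.76 (0.25 ± 0.064, limma adjusted p = 0.0256) and chlorthalidone arrays 9.70, 9.73 and 9.70 (0.24 ± 0.064, limma adjusted p = 0.0272). The loratadine call held without any 1 of the 6 arrays. Those of clozapine and chlorthalidone were lost without each of the 6 in turn, with limma adjusted p of 0.0514 to 0.146 and 0.054 to 0.114, and that of metoclopramide without DMSO replicate 1 or 2 or any of its own arrays (adjusted p up to 0.272). These 3 calls were also lost when limma was fitted on the 6 arrays of a comparison alone (adjusted p of 0.0749 for chlorthalidone, 0.117 for clozapine and 0.259 for metoclopramide).

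Fnip2, the second partner of folliculin, passed the test with loratadine alone, where the arrays read 9.34, 9.30 and 9.30, against 9.12, 9.06 and 9.07 with DMSO. Every loratadine array was above every DMSO array, and the log2 fold change was 0.23 ± 0.063 (limma adjusted p = 0.00745, at most 0.0388 without 1 array). Metoclopramide and ondansetron came next, at 0.17 ± 0.063 (limma adjusted p = 0.267) and 0.16 ± 0.063 (adjusted p = 0.237), and did not pass. Whether Fnip2 responds to fewer compounds than Fnip1 was not tested.

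Rragc, encoding RagC, rose with 3 of the compounds that raised Flcn. Clozapine arrays read 10.28, 10.23 and 10.27, against 9.93, 9.72 and 10.00 on the DMSO arrays, for a log2 fold change of 0.38 ± 0.070 (limma adjusted p = 0.000799). The DMSO arrays were wide apart for this gene, with replicate 2 the lowest, and still did not overlap. Loratadine arrays read 10.29, 10.17 and 10.19 (0.33 ± 0.070, limma adjusted p = 0.000435) and chlorthalidone arrays 10.15, 10.09 and 10.16 (0.25 ± 0.070, limma adjusted p = 0.0378). Clozapine and loratadine kept the call without any 1 array; chlorthalidone lost it without DMSO replicate 1 or 2 or any of its own arrays (adjusted p up to 0.311). In limma fits of the 6 arrays of a comparison alone clozapine (adjusted p = 0.130) and chlorthalidone (0.192) were not called, and against the mean of the other 18 compounds chlorthalidone was not (0.13, adjusted p = 0.144). Metoclopramide and ondansetron stood at 0.30 ± 0.070 (limma adjusted p = 0.0524) and 0.26 ± 0.070 (adjusted p = 0.078).

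**Figure D2:**
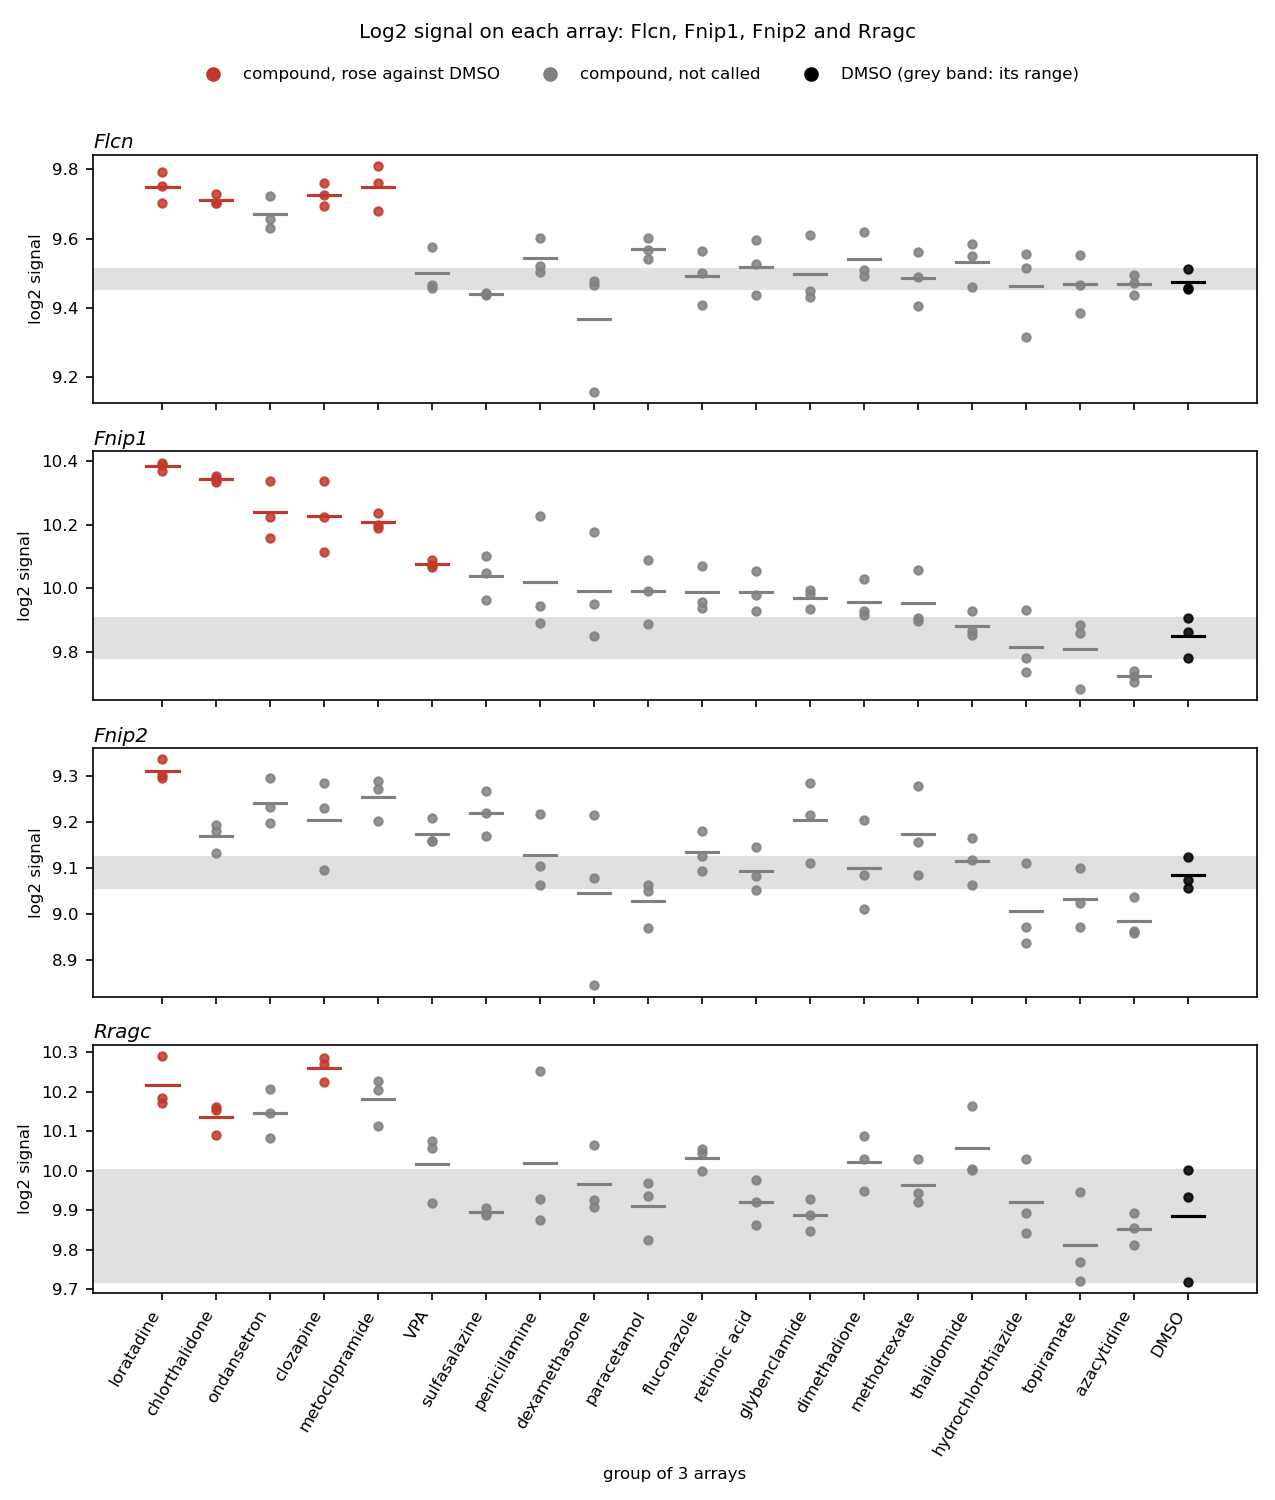
Log2 signal of Flcn, Fnip1, Fnip2 and Rragc on each of the 60 arrays (points) by group of 3, with the group mean as a line and the range of the DMSO arrays as a grey band; red marks compounds called by limma against DMSO. For Fnip1 all arrays of the 6 compounds called, loratadine at 10.37 to 10.40 among them, lie above the DMSO arrays at 9.78 to 9.91.

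Rragd, encoding RagD, moved the opposite way and in 7 compounds. Paracetamol arrays read 8.80, 8.77 and 8.77, against 9.45, 9.37 and 9.53 with DMSO. Paracetamol had the lowest mean of the 20 groups and did not overlap DMSO, with a log2 fold change of -0.67 ± 0.067 (limma adjusted p = 3.39e-10). Retinoic acid arrays read 8.85, 8.99 and 8.70 (-0.60 ± 0.067, limma adjusted p = 1.07e-09) and VPA arrays 8.97, 8.96 and 8.80 (-0.54 ± 0.067, limma adjusted p = 6.77e-09). These 3 compounds gave the strongest decreases among the 8 genes, and all 3 calls held without any 1 array. The Rragd promoter printed above holds no CACGTG in its window, and no further reading is drawn from that.

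Smaller decreases of Rragd came with 4 more compounds. Loratadine arrays read 9.24, 9.08 and 9.10 (-0.31 ± 0.067, limma adjusted p = 0.000511) and glybenclamide arrays 9.12, 9.10 and 9.23 (-0.30 ± 0.067, limma adjusted p = 0.00183). Both sat below the lowest DMSO array, 9.37, on every array. Hydrochlorothiazide arrays read 9.07, 9.15 and 9.30 (-0.28 ± 0.067, limma adjusted p = 0.0195) and sulfasalazine arrays 9.26, 9.19 and 9.15 (-0.25 ± 0.067, limma adjusted p = 0.015). Hydrochlorothiazide lost its call without DMSO replicate 1 or 3 or its own replicate 1 or 2 (adjusted p up to 0.293), and sulfasalazine without DMSO replicate 3 or its own replicate 2 or 3 (adjusted p up to 0.0612). Both were lost in limma fits of the 6 arrays of a comparison alone (adjusted p of 0.335 for hydrochlorothiazide and 0.0505 for sulfasalazine). Hydrochlorothiazide replicates 1 and 2 had the lowest interquartile ranges of signal of the 60 arrays, 2.97 and 2.99, and with that range as a covariate the log2 fold change was -0.17 (limma adjusted p = 0.617). DMSO was itself the third highest of the 20 groups for Rragd, with 17 of the 19 compounds below it. Set against the mean of the other 18 compounds in place of DMSO, paracetamol (-0.49), retinoic acid (-0.42) and VPA (-0.35) were still called, while loratadine (-0.11), glybenclamide (-0.10), hydrochlorothiazide (-0.07) and sulfasalazine (-0.04) were not.

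Tfeb, the best known regulator of lysosomal genes, fell with the 2 compounds that lowered Rragd most. Retinoic acid arrays read 8.92, 8.78 and 8.98, against 9.42, 9.26 and 9.34 with DMSO, for a log2 fold change of -0.44 ± 0.063 (limma adjusted p = 4.78e-07). Paracetamol arrays read 8.99, 9.00 and 8.91 (-0.37 ± 0.063, limma adjusted p = 3.04e-05). Neither group overlapped DMSO or any of the other 17 compounds, and both calls held without any 1 array. VPA, the third of the compounds that lowered Rragd most, stood at -0.14 ± 0.063 for Tfeb (limma adjusted p = 0.104).

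Tfe3, the member of the family with the known role in stem cells, was the brightest of the 8 probe sets. VPA arrays read 11.00, 11.00 and 10.98, against 11.31, 11.24 and 11.26 with DMSO. The VPA arrays were tightly together and below every DMSO array, with a log2 fold change of -0.28 ± 0.055 (limma adjusted p = 6.58e-05, at most 0.00115 without 1 array). Loratadine arrays read 11.01, 11.14 and 11.14 (-0.18 ± 0.055, limma adjusted p = 0.0178), also below DMSO, with replicate 1 the lowest. That call was lost without DMSO replicate 1 or loratadine replicate 1 (adjusted p up to 0.142), and in a limma fit of the 6 arrays of the comparison alone (0.0642). Signals of different probe sets are not a measure of which gene has more RNA, since each has its own probes.

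Mitf, known as the master regulator of melanocytes, fell with 4 compounds. Dexamethasone arrays read 8.24, 8.09 and 8.17, against 8.34, 8.55 and 8.51 with DMSO, where replicate 1 was the lowest. The groups did not overlap, and the log2 fold change was -0.30 ± 0.063 (limma adjusted p = 0.00383). Retinoic acid arrays read 8.14, 8.24 and 8.24 (-0.26 ± 0.063, limma adjusted p = 0.00386). Paracetamol arrays read 8.32, 8.19 and 8.27 (-0.21 ± 0.063, limma adjusted p = 0.028) and sulfasalazine arrays 8.23, 8.27 and 8.31 (-0.19 ± 0.063, limma adjusted p = 0.0424). Dexamethasone kept its call without any 1 array; retinoic acid lost it without DMSO replicate 2 (adjusted p = 0.0527), paracetamol without DMSO replicate 2 or 3 or its own replicate 2 or 3 (adjusted p up to 0.179), and sulfasalazine without DMSO replicate 2 or 3 or any of its own arrays (adjusted p up to 0.275). All 4 calls were lost in limma fits of the 6 arrays of a comparison alone, with adjusted p of 0.687 for dexamethasone, 0.101 for retinoic acid, 0.129 for paracetamol and 0.0936 for sulfasalazine. DMSO was the second highest group for Mitf, above 18 of the 19 compounds. Against the mean of the other 18 compounds, dexamethasone (-0.17) and retinoic acid (-0.13) were called, and paracetamol (-0.08) and sulfasalazine (-0.06) were not. The other Mitf probe set was dim, with a mean of 3.98 over all arrays against 8.34 for the one used, so it gives no check of these calls.

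**Figure D3:**
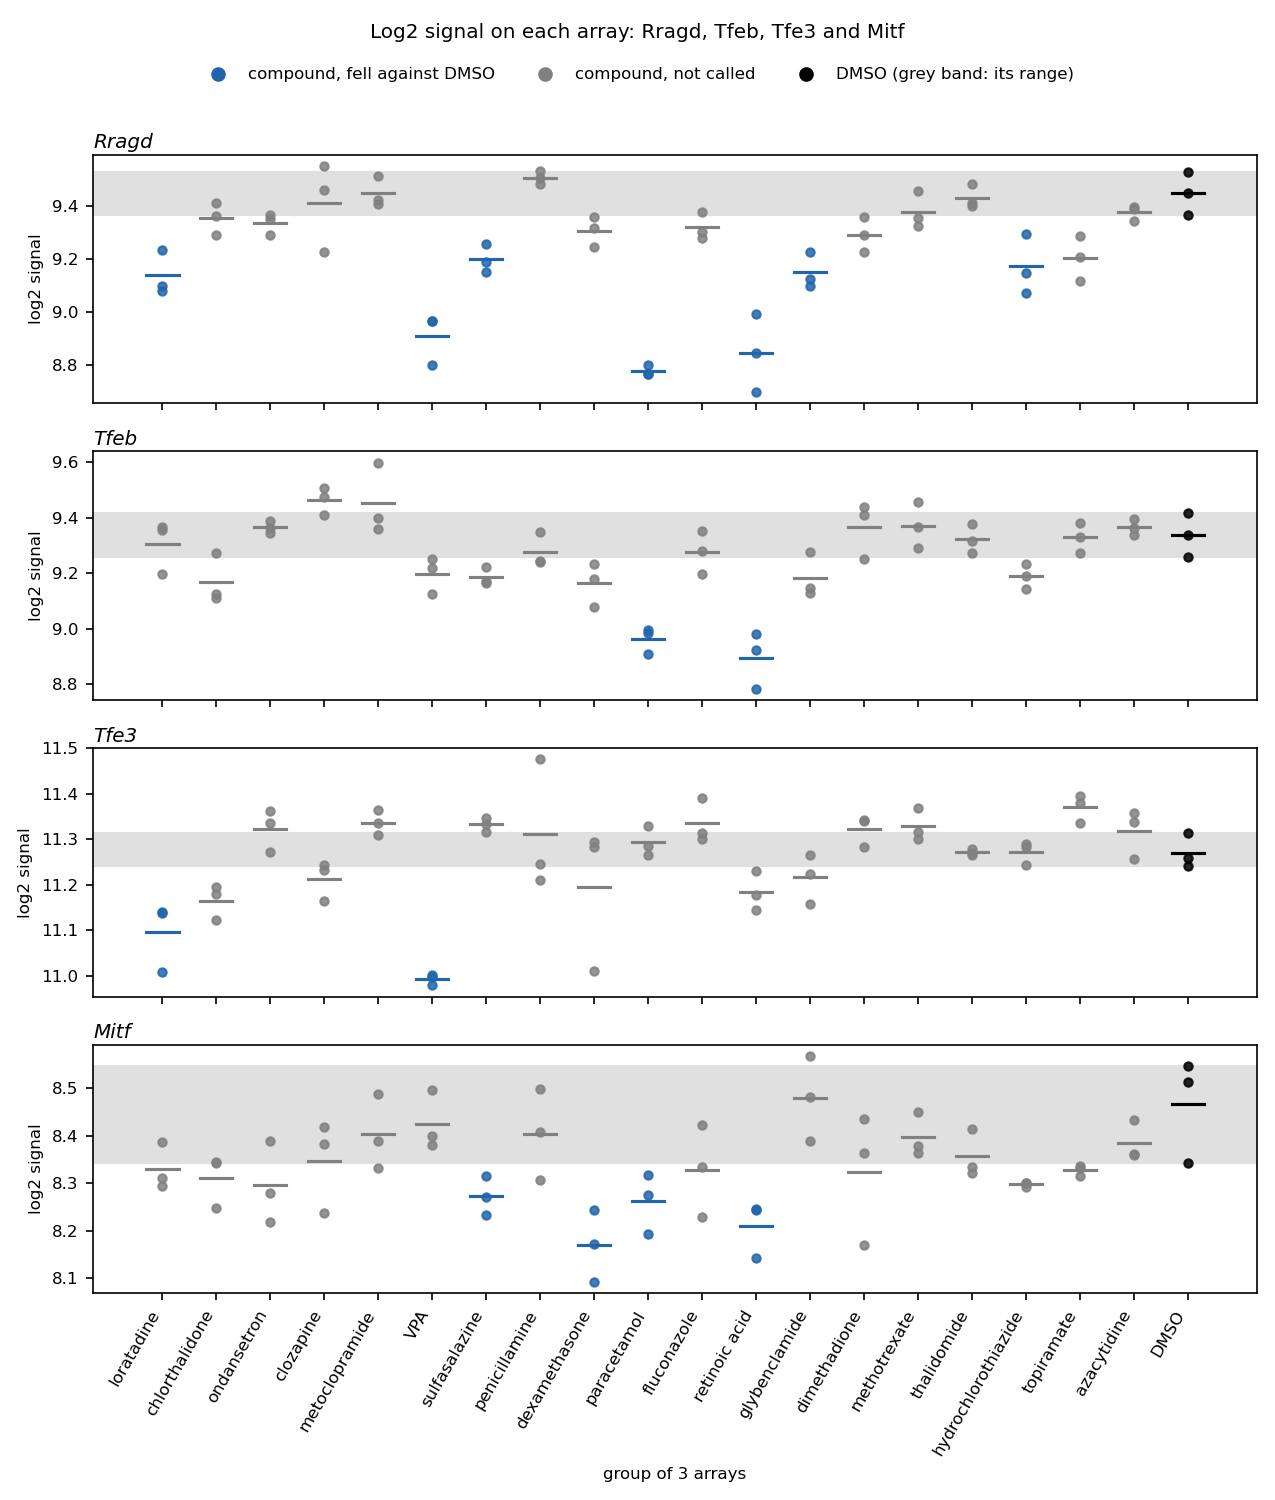
Log2 signal of Rragd, Tfeb, Tfe3 and Mitf on each of the 60 arrays (points) by group of 3, with the group mean as a line and the range of the DMSO arrays as a grey band; blue marks compounds called by limma against DMSO. For Rragd the paracetamol arrays at 8.77 to 8.80 lie far below the DMSO arrays at 9.37 to 9.53.

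With penicillamine, thalidomide, azacytidine, dimethadione, fluconazole, topiramate and methotrexate none of the 56 pairs passed limma's adjusted threshold, and 8 had an unadjusted p under 0.05. Their log2 fold changes ran between -0.24, for Rragd with topiramate (limma adjusted p = 0.183, the lowest of the 56), and 0.17, for Rragc with thalidomide. Dimethadione had 0.119% of all probe sets called and the other 6 compounds 0. In each of the 7, between 1435 and 2575 of the 21789 probe sets had an unadjusted p under 0.05. For methotrexate and azacytidine, the 2 antimetabolites, none of the 8 genes reached even that. With 3 arrays a group, the number of arrays limits the precision of each value.

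Within each gene the 20 group means formed a near continuous series. The means of neighbouring groups in that order had overlapping arrays in 17 to 19 of the 19 neighbour pairs for every gene. For Fnip1 the breaks were between loratadine and chlorthalidone at the top and between metoclopramide and VPA, so that 5 compounds with means of 10.21 to 10.38 stood above the other 15 groups, whose means were 9.72 to 10.08. Single arrays of penicillamine (10.23) and dexamethasone (10.18) reached into the range of those 5. For Rragd the single break put VPA, retinoic acid and paracetamol, at means of 8.91, 8.84 and 8.78, below loratadine at 9.14. For Tfeb it put paracetamol at 8.96 and retinoic acid at 8.90 below dexamethasone at 9.16, and for Tfe3 it put VPA at 10.99 below loratadine at 11.10. The Tfe3 break was narrow, with the lowest loratadine array at 11.008 and the highest VPA array at 11.002. For Flcn the break lay between ondansetron, at a mean of 9.67, and paracetamol, at 9.57, with the same 5 compounds above it as for Fnip1. For Fnip2 it put loratadine, at 9.31, above metoclopramide, at 9.25. Rragc and Mitf had no break.

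Flcn, Fnip1, Fnip2 and Rragc varied together over the 20 group means, with Pearson r of 0.65 to 0.85 for their 6 pairs. Without the 2 groups farthest from the median of the first gene of a pair, r was 0.47 to 0.81. Rragd, the paralog of Rragc, had r of 0.02 to 0.31 with these 4 genes and varied more closely with Tfeb (r = 0.79, and 0.53 without the 2 farthest groups). These values describe 20 points that share a platform, a normalisation and one cell line.

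**Figure D4:**
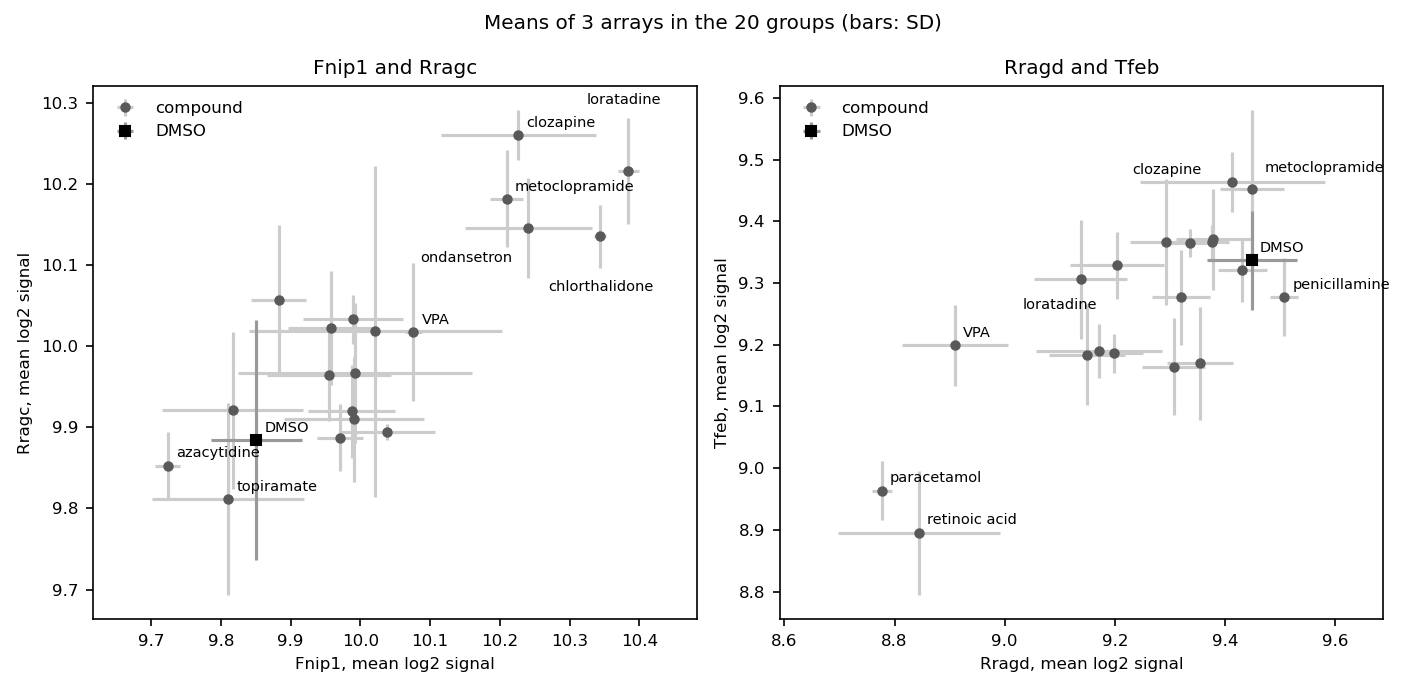
Group means of 3 arrays (points, bars show SD) for Fnip1 and Rragc on the left and for Rragd and Tfeb on the right, in log2 signal, with DMSO as a black square. On the left loratadine, clozapine, chlorthalidone, ondansetron and metoclopramide stand at the upper right; on the right paracetamol and retinoic acid stand at the lower left.

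Over the same 20 group means, the genes whose pattern was most like that of each member among 9931 compared were the following. For Flcn they were Tbc1d24 (r = 0.87), Smcr8 (0.86) and Clcn7 (0.85), a lysosomal chloride and proton exchanger. For Fnip1 they were Asah1 (0.87), the lysosomal acid ceramidase, AW549877 (0.86) and Cds1 (0.85). For Rragc they were Crebrf (0.90), Klhl24 (0.86) and Flcn itself (0.85). Fnip2 was most like Rufy3 (0.92), Anxa7 (0.91) and Osbpl1a (0.90). Rragd was most like Pcolce2 (0.87), Bnc2 (0.86) and Fbxo22 (0.86), and Tfeb like Dnmt3l (0.91), a cofactor of DNA methylation, Il17rd (0.89) and Stmn2 (0.88). Tfe3 was most like Igfbp3 (0.91), Urm1 (0.91) and Cdca5 (0.90), while Mitf had no close companion, with 0.76 for Ank at best. These are the top 3 of 9931 values for each gene, and how high unrelated genes would reach over 20 points was not computed.

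Direct contrasts asked where responses to a pair of compounds differed, 4 pairs in all, with p-values adjusted over all probe sets within each contrast; doses differed within every pair. Loratadine and clozapine, both tricyclic drugs, differed in Rragd, which was lower with loratadine at 0.043 mM than with clozapine at 0.028 mM by a log2 difference of -0.28 ± 0.067 (limma adjusted p = 0.00346; 11.2% of all probe sets called). Clozapine arrays read 9.55, 9.23 and 9.46 for Rragd and spread across the DMSO range, and the loratadine arrays given above overlapped clozapine's lowest. This 1 gene called was close to what the share of all probe sets would give for 8 genes. Without clozapine replicate 1 the count was 0 of 8. For the genes both compounds raised, the intervals of the difference were -0.10 to 0.15 for Flcn and -0.19 to 0.10 for Rragc, while Fnip1 was 0.16 ± 0.071 higher with loratadine (limma adjusted p = 0.154).

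Loratadine and VPA, at 0.043 and 1 mM, differed in 4 of the 8 genes, where 29.4% of all probe sets were called. Flcn (0.25 ± 0.064, limma adjusted p = 0.00179), Fnip1 (0.31 ± 0.071, adjusted p = 0.000594), Rragc (0.20 ± 0.070, adjusted p = 0.0275) and Rragd (0.23 ± 0.067, adjusted p = 0.00686) were all higher with loratadine. Tfe3, which both compounds lowered against DMSO, differed by 0.10 ± 0.055 between them (limma adjusted p = 0.159). Without loratadine replicate 1 the count of genes called was 2.

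VPA and retinoic acid, at 1 and 0.024 mM, both lowered Rragd, and the difference between them had an interval of -0.07 to 0.20. They differed in all 3 transcription factor genes, where 33.1% of all probe sets were called. These 3 were close to what that share would give for 8 genes. Tfeb was higher with VPA by 0.30 ± 0.063 (limma adjusted p = 0.000106) and Mitf by 0.21 ± 0.063 (adjusted p = 0.00593). Tfe3 was lower with VPA, at -0.19 ± 0.055 (adjusted p = 0.0047). Glybenclamide and sulfasalazine, both drugs with a sulfonyl group, at 0.37 and 1 mM, differed in none of the 8 genes by limma's adjusted p (2 had an unadjusted p under 0.05), where 2.41% of all probe sets were called. The widest gap was Mitf, at 0.21 ± 0.063 (interval 0.08 to 0.33, limma adjusted p = 0.0659), and Rragd, which both lowered against DMSO, had an interval of -0.18 to 0.09.

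**Figure D5:**
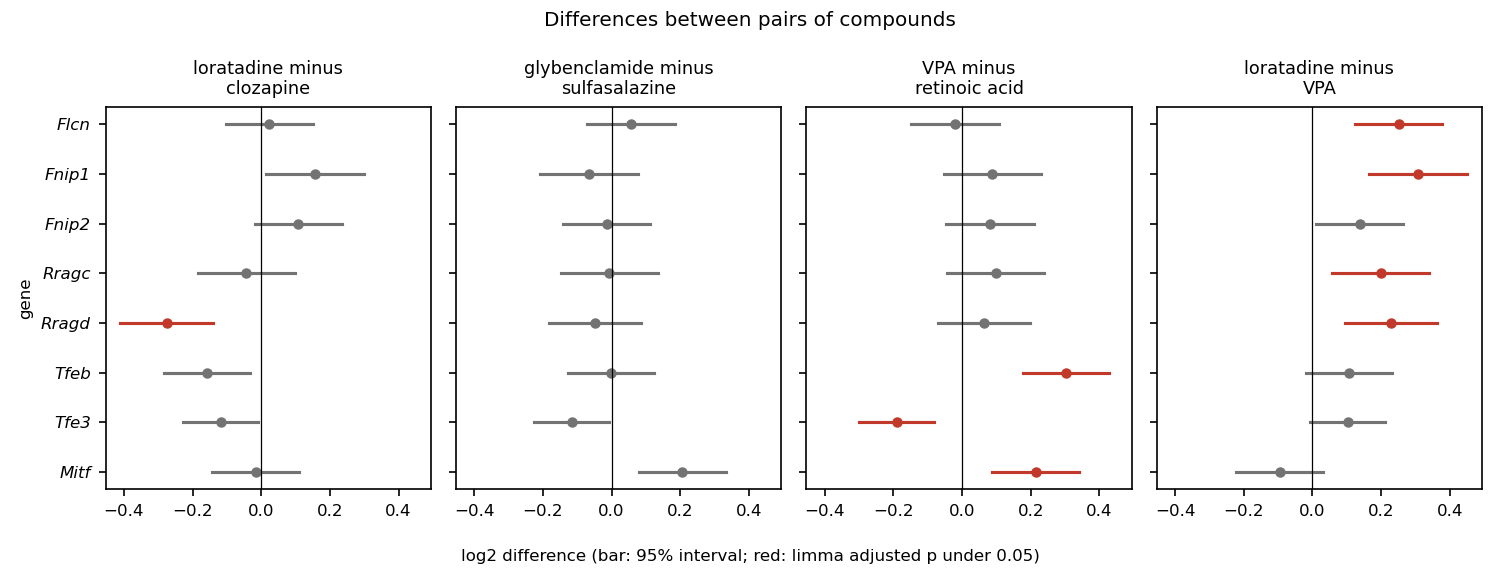
Log2 difference of each of the 8 genes in the 4 direct contrasts between compounds, the first compound named minus the second, with 95% intervals from limma; red shows the differences called at adjusted p under 0.05. Tfeb differs most in VPA minus retinoic acid, at 0.30, and Fnip1 in loratadine minus VPA, at 0.31.

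All 9 non-teratogens and 3 of the 10 teratogens moved at least 1 of the 8 genes, but no gene was called between the classes. Of the 7 other teratogens, 6 had no probe set called at all and dimethadione had 0.119%, so this split is not particular to the 8 genes. Over compound means, limma called 0 of the 8 genes and 0% of all probe sets between 10 teratogens and 9 non-teratogens, 1 value per compound. At an unadjusted p under 0.05 there were 3 genes and 955 of 21789 probe sets. That is fewer probe sets than this threshold gives without any difference. The 3 genes were Fnip1 (log2 difference -0.20), Flcn (-0.13) and Fnip2 (-0.08), teratogens minus non-teratogens, each with limma adjusted p = 0.976.

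Around the 8 genes, 116 of 122 genes of the pathway in 8 lists were measured. The list of known TFEB and TFE3 targets, 27 of 30 measured, had 19 genes rise and 0 fall with loratadine. Of all probe sets 10.9% rose and 8.26% fell with it. The list had a median log2 fold change of 0.26 against -0.04 over all probe sets. Its largest called changes were Hexa (0.75 ± 0.079), the alpha subunit of hexosaminidase, Neu1 (0.70 ± 0.066), the lysosomal sialidase, Lamp2 (0.64 ± 0.068), a lysosomal membrane protein, and Gla (0.63 ± 0.067), alpha-galactosidase. The melanocyte and lysosome glycoprotein gene Gpnmb, a sensitive target of these factors, rose by 0.27 ± 0.079 with loratadine (limma adjusted p = 0.0108) and by 0.34 ± 0.079 with VPA (adjusted p = 0.00074).

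Compounds that raised few or none of the 8 genes also raised genes of this list. VPA raised 15 of its 27 genes (median 0.23 against -0.01 over all probe sets) and glybenclamide 14 (0.17 against -0.03), although neither raised Flcn, Fnip2 or Rragc. Clozapine raised 13 (0.17 against -0.01), where 1.10% of all probe sets rose, and chlorthalidone 5 (0.12 against 0.003), where 1.44% rose. With VPA 15.5% of all probe sets rose. Paracetamol and sulfasalazine raised 4 each, where 8.76% and 8.90% of all probe sets were called in either direction. Ondansetron raised 1, where 0.330% were called. Retinoic acid also raised 1, where 9.82% were called, so its count was below that share. With glybenclamide 9.54% were called. Metoclopramide raised none by limma's adjusted p, with a list median of 0.12. No listed target fell with any compound.

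Counts in the other lists are to be read against the shares of all probe sets that rose and fell, 10.9% and 8.26% with loratadine and 15.5% and 11.0% with VPA. Of the Rag, Ragulator and mTORC1 core genes, all 17 measured, loratadine raised 4 and lowered 2, with Tbc1d7 (0.69 ± 0.134) and Tsc1 (0.45 ± 0.057), both subunits of the TSC complex that restrains mTORC1, Akt1s1 (-0.48 ± 0.065), an mTORC1 inhibitor, and Slc38a9 (0.29 ± 0.078), the lysosomal arginine sensor, changed most. VPA raised 4 and lowered 5 of them. Of 16 GATOR and amino acid sensor genes measured, 6 rose and 1 fell with loratadine, led by Sesn1 (0.38 ± 0.077), a leucine sensor, and Mios (0.29 ± 0.089), a GATOR2 subunit. Castor1 (0.26 ± 0.078), a cytosolic arginine sensor, and Nprl3 (0.26 ± 0.072), a GATOR1 subunit, came after them. The medians of these lists with loratadine were 0.04 and 0.09, against -0.04 over all probe sets.

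Of 9 genes of AMPK, the energy-sensing kinase that acts on this pathway, loratadine raised Prkaa2 (0.42 ± 0.083) and Prkab2 (0.30 ± 0.068), 2 of 9 where 10.9% of all probe sets rose, and VPA raised 5 and lowered 1. Of 12 genes measured that control where TFEB and TFE3 go, loratadine raised Mcoln1 (0.44 ± 0.071), the lysosomal calcium channel, and the calcineurin subunits Ppp3cc (0.37 ± 0.073) and Ppp3cb (0.32 ± 0.062). Mcoln1 also rose with clozapine, chlorthalidone, glybenclamide and VPA. Of 8 melanocyte targets of MITF, loratadine raised Pmel (0.69 ± 0.068) and Trpm1 (0.25 ± 0.080). Pmel fell with retinoic acid (-0.40 ± 0.068, limma adjusted p = 2.41e-05), and none of the 8 targets fell with dexamethasone, paracetamol or sulfasalazine, the other compounds that lowered Mitf. Pmel also rose with VPA (0.51 ± 0.068), clozapine (0.37 ± 0.068), chlorthalidone (0.29 ± 0.068) and glybenclamide (0.25 ± 0.068), where Mitf was not called.

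Naive pluripotency genes moved in opposite directions among compounds that changed the 8 genes. Esrrb, the target through which Tfe3 is known to act in these cells, rose with loratadine (0.34 ± 0.073, limma adjusted p = 0.000537) and clozapine (0.31 ± 0.073, adjusted p = 0.0142), and fell with VPA (-0.31 ± 0.073, adjusted p = 0.000688) and paracetamol (-0.28 ± 0.073, adjusted p = 0.00734). Of the 12 genes of the list, 9 fell with paracetamol, where 4.15% of all probe sets fell. The list median was -0.28 against 0.01 over all probe sets. With VPA 8 fell (list median -0.51 against -0.01), where 11.0% of all probe sets fell. With loratadine Klf2 (0.39 ± 0.072) and Klf4 (0.19 ± 0.065) rose beside Esrrb, and Nr5a2 fell (-0.65 ± 0.065). Retinoic acid, which lowered Rragd, Tfeb and Mitf as paracetamol did, raised 4 and lowered 2 of the 12. With it 9.82% of all probe sets were called and 3.92% fell. On the paracetamol arrays the mean of the 12 stem cell markers was 12.02 to 12.03 and on the VPA arrays 11.87 to 11.90, against 12.19 to 12.23 on the DMSO arrays; their part in the changes of Rragd, Tfeb, Tfe3 and Mitf was not tested.

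Genes induced by ATF4, the transcription factor of the amino acid and stress response, moved with several of the same compounds. Loratadine raised 13 of 16 and lowered 0 (median 0.39 against -0.04 over all probe sets), with Ddit3 (1.58 ± 0.090), which encodes CHOP, Chac1 (1.55 ± 0.084), Trib3 (0.93 ± 0.068) and Ddit4 (0.79 ± 0.091), an mTORC1 inhibitor, changed most. Sulfasalazine raised 10, chlorthalidone and glybenclamide 9 each, retinoic acid and VPA 5 each, dexamethasone 4, ondansetron 3, paracetamol 2 and clozapine 1. None of the 16 fell with any compound. These counts are to be read against the share of all probe sets called in either direction. It was 26.5% with VPA, 19.2% with loratadine, 9.82% with retinoic acid, 9.54% with glybenclamide and 8.90% with sulfasalazine. It was 8.76% with paracetamol, 6.25% with dexamethasone, 2.58% with chlorthalidone, 1.31% with clozapine and 0.330% with ondansetron. With VPA and paracetamol the counts were close to what those shares would give for 16 genes. Metoclopramide, which raised Flcn and Fnip1, raised none of the 16 by limma's adjusted p, with a list median of 0.07. The part of this response in the changes of the 8 genes was not tested. Of the 12 fibroblast markers loratadine raised 1, Postn, and lowered 3, Col3a1, Pdgfrb and Dcn, where 19.2% of all probe sets were called. With each of the other compounds at most 1 rose and at most 1 fell. Retinoic acid (Pdgfrb up, Thy1 down) and VPA (Thy1 up, Col1a2 down) had both.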

How the data were processed

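The authors deposited log2 signals of 60 Affymetrix mouse gene arrays, normalised by RMA per the submitters' processing notes; the array medians and correlations given above were checked on these values, which were used as they stand. Of 35556 probe sets, 21789 paired with a single gene symbol in GEO's platform annotation were tested, and 1621 with several symbols and 12146 without an entry were not used. Limma 3.58.1 in R 4.3.3 fitted 1 mean for each of the 20 groups on all 60 arrays (40 residual degrees of freedom, and 7.31 from the prior), with contrasts to DMSO or between compounds, and Benjamini-Hochberg adjustment over the 21789 probe sets within each contrast; a call is an adjusted p under 0.05. Groups come from the labels. The fit was tested on simulated data.

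The 8 genes and the gene lists were chosen with earlier results of these data known, so a pattern in them is no independent evidence. Each gene is read from its brightest probe set. Compounds are described one by one where they moved at least 1 of the 8 genes; from each list the text names the 4 called genes with the largest change with loratadine, plus Esrrb and Gpnmb; likeness is the highest Pearson r over group means. Mcoln1 and Pmel with other compounds, and the fibroblast markers, were named after their values were seen. Promoters are from RefSeq (GRCm38.p6). Alternatives tried were quantile normalisation, leaving out dim probe sets, all probe sets, 6 arrays at a time, trend and robust options, the letter b in 8 titles or the interquartile range of an array as a covariate, the other Mitf probe set, leaving out each array, and the other compounds as reference.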

Additional observations from a re-analysis of the deposited data

How the results depend on the processing

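Of the 29 calls, 13 held in each of the 13 planned settings run for a pair (7 of processing or model and 6 that leave out 1 array), and 16 were lost in at least 1; none changed sign in them. The other Mitf probe set, too dim to check the calls, gave 0.0329 with dexamethasone, 0.0489 with paracetamol and 0.0432 with sulfasalazine, each under its standard error of 0.108, so these signs carry no direction. The number of pairs called was 34 after quantile normalisation, 32 without dim probe sets, 26 with all probe sets, 30 with trend and robust options, 30 with the letter b, 29 with the interquartile range as a covariate and 14 when only the 6 arrays of a comparison entered the model, which estimates the spread from fewer arrays.

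The number of the 8 genes called changed by over 1.5 times, or to or from 0, as follows; smaller changes, by 1 gene, are not listed. Quantile normalisation gave 2 for glybenclamide, 2 for dexamethasone, 2 for loratadine minus clozapine and 1 for glybenclamide minus sulfasalazine. Leaving out dim probe sets gave 2 for dexamethasone, 2 for ondansetron and 1 for glybenclamide minus sulfasalazine. All probe sets gave 1 for metoclopramide and 1 for sulfasalazine. Models of 6 arrays gave 1 for chlorthalidone and 0 for clozapine, hydrochlorothiazide, dexamethasone, metoclopramide, ondansetron and sulfasalazine. The interquartile range as a covariate gave 2 for glybenclamide, 2 for dexamethasone, 0 for hydrochlorothiazide, 1 for metoclopramide and 1 for sulfasalazine. The cause was not tested.

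Without 1 array at a time the counts were 1 to 2 for chlorthalidone, 2 for clozapine, 1 for glybenclamide, 2 to 3 for retinoic acid, 0 to 1 for hydrochlorothiazide, 1 to 2 for dexamethasone, 5 to 6 for loratadine, 0 to 3 for metoclopramide, 0 to 2 for ondansetron, 2 to 3 for paracetamol, 0 to 2 for sulfasalazine and 2 to 3 for VPA. They were 0 to 1 for loratadine minus clozapine, 2 to 3 for VPA minus retinoic acid, 2 to 4 for loratadine minus VPA, and 0 for the 7 compounds without a call. Without DMSO replicate 1, 2 or 3 the pairs called were 22, 21 and 25. A reference made of the other 18 compounds, chosen after seeing the data, called 33 pairs, 19 of them among the 29. In the 14 new calls Rragd, Tfeb, Tfe3 or Mitf stood above that reference, or Flcn, Fnip1, Fnip2 or Rragc below it. The split of increases and decreases by gene thus depends on DMSO as the reference. No paired analysis was possible because replicate numbers only follow the order of the samples and tie no array of one group to an array of another.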
